A study of Xenopus tropicalis with 17 samples.

Results

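The genes described here are 9 transcription factors known as neural crest specifiers: snai1, snai2, twist1, sox8, sox9, sox10, foxd3, tfap2e and ets1. They were taken by name from the 26531 genes counted in each library, and all 9 were found and passed the filter on low counts. Their RNA was measured by RNA-seq in the frog Xenopus tropicalis at stages 15, 25 and 35, which run from neurula through early to late tailbud. The embryos, used whole, carried 3 genotypes (wild type, heterozygous or null) of sf3b4, a gene that encodes a subunit of the SF3b complex of the spliceosome, and the study's title names neural crest migration and survival as an interest. Each library came from a pool of 5 embryos. The 3 stages and 3 genotypes gave 9 groups, of which 8 had 2 pools each and stage 15 null had 1, for 17 libraries. No treatment was applied to any group, and the labels used here name neither the sf3b4 lesion nor a parental line.

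The neural crest arises at the border of the neural plate, leaves the neural tube by an epithelial-to-mesenchymal transition and migrates to form facial cartilage, pigment cells, peripheral neurons and glia. Wnt, FGF and BMP signals first switch on border factors, and these switch on the specifiers, which drive crest fate, cell detachment and later lineage choice. Snai1, snai2 and twist1 act in the transition to mesenchyme. Sox8, sox9 and sox10 form the SoxE family and act in crest formation, cartilage (sox9), and glia and pigment cells (sox10). Foxd3 is a forkhead factor that keeps crest cells as progenitors, tfap2e is an AP-2 factor that acts in crest specification in Xenopus, and ets1 acts in the detachment of cranial crest cells. Several of them are also transcribed elsewhere: snai1 and twist1 in mesoderm, sox9 in the ear vesicle and cartilage, and ets1 in blood vessels.

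Library totals ran from 11714437 to 21639041 counts, and the lowest count of a specifier gene in a library was 11, for sox8. Levels are given as CPM, counts relative to the library total, after scaling by the trimmed mean of M values. Levels of different genes are not compared, because no transcript lengths were used. A principal component with 70.5% of the variance followed stage. The second wild type pool of stage 15 had a score of -129 on it, against -166 to -157 for the other 4 stage 15 libraries, so stage steps and genotype differences that rest on that pool are given with and without it. At stage 35 the null pools had scores of 128 and 135, against 150 to 156 for the other libraries of that stage, nearer to stage 25. The part of this gap in the stage 35 differences between null and other pools was not tested. The targeted gene sf3b4 was below wild type in both null pools of stages 25 and 35, but was called in no comparison within a stage. Null pools differed by a log2 fold change of -0.38 (SE 0.20, edgeR adjusted p = 0.433) at stage 25 and -0.30 (SE 0.20, edgeR adjusted p = 0.394) at stage 35. A gene was called at an edgeR adjusted p under 0.05 over all 17742 tested genes.

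The specifier genes followed 3 courses in wild type embryos. Snai1, snai2 and foxd3 fell at both steps, from stage 15 to 25 and from stage 25 to 35. Sox8 and sox9 fell by stage 25, with no call after that, and sox10, twist1 and ets1 showed no call by stage 25 and fell by stage 35. Tfap2e passed no test between stages. From stage 15 to 25, 5 of the 9 genes fell and 0 rose, where 16.9% of all tested genes fell and 23.4% rose. From stage 25 to 35, 6 of the 9 fell and 0 rose, where 22.5% of all tested genes fell and 24.7% rose. Heterozygous pools, which share no library with wild type, gave the same 5 and the same 6 genes as lower, beside 18.7% and 22.0% of all tested genes. The step from stage 25 to 35 in null pools called the same 6 genes lower, beside 21.1%. The median log2 fold change of the 9 genes in wild type was -0.87 at the first step and -1.25 at the second, against 0.07 and 0 over all tested genes. Without the second stage 15 wild type pool the same 5 genes were called lower at the first step and sox10 was called higher. The 5 log2 fold changes were then -1.05 for snai1, -1.53 for snai2, -2.30 for sox8, -1.72 for sox9 and -1.64 for foxd3, and the median of the 9 was -1.05. For sox10 the step was 0.98 without that pool and -0.16 without the first. In pools of whole embryos, fewer cells of a type and less RNA per cell cannot be told apart.

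**Figure D1:**
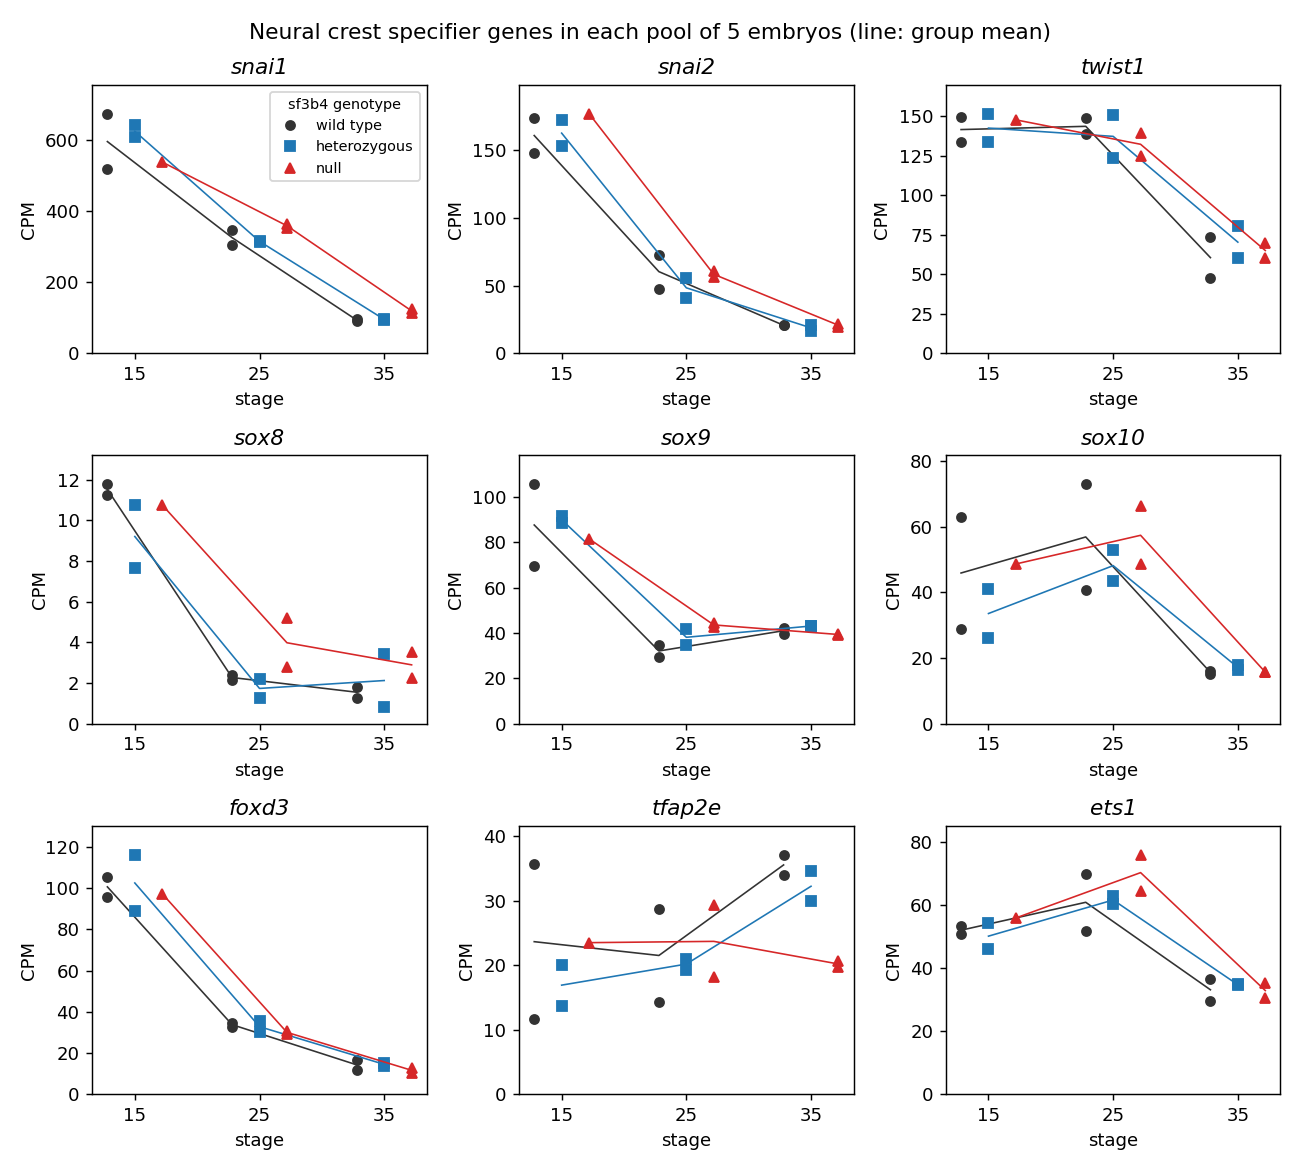
Level of each specifier gene (CPM, y axis from 0, a scale of its own per panel) against stage, with 1 point per pool of 5 embryos and lines through the group means; the genotypes are set slightly apart along the x axis. Snai1, snai2 and foxd3 drop at both steps, sox10, twist1 and ets1 drop only after stage 25, and both null points of tfap2e lie below the others at stage 35. Points of a stage are spread widely for sox8 at stages 25 and 35 and for tfap2e and sox10 at stage 15.

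Snai1 encodes a zinc finger repressor of epithelial genes. At stage 15, snai1 stood at 675 and 518 CPM in the wild type pools, 609 and 642 in the heterozygous pools and 539 in the null pool. At stage 25 the snai1 pools read 347 and 305 CPM in wild type, 317 and 314 in heterozygous and 354 and 365 in null embryos. At stage 35 they read 90.8 and 96.0, 96.8 and 93.8, and 113 and 126 CPM in the same order. No pool of a later stage reached the level of any pool of an earlier one. In wild type, snai1 had a log2 fold change of -0.87 to stage 25 (SE 0.15, edgeR adjusted p = 0.000405) and of -1.80 from there to stage 35 (SE 0.16, edgeR adjusted p = 5.96e-07), which left 15.7% of its mean stage 15 level, or 13.8% of the first stage 15 pool alone. In heterozygous pools 15.2% was left, and in null pools 22.2% of the single stage 15 pool.

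Snai2, a close relative of snai1 and a classic marker of premigratory crest, also fell at both steps. At stage 15, snai2 measured 174 and 148 CPM in wild type, 173 and 153 in heterozygous and 177 in null embryos. By stage 25 the values were 73.0 and 47.8, 56.0 and 40.8, and 56.2 and 60.6 CPM, and by stage 35 they were 20.7 and 20.6, 16.4 and 21.1, and 19.5 and 21.9 CPM. The stages did not overlap, while null and wild type pools overlapped at stages 25 and 35. Snai2 changed in wild type by a log2 fold change of -1.42 (SE 0.21, edgeR adjusted p = 0.000108) at the first step and -1.55 (SE 0.22, edgeR adjusted p = 4.16e-05) at the second. The mean level at stage 35 was 12.8% of the stage 15 mean in wild type pools (11.9% of the first pool alone) and 11.5% in heterozygous pools. In null pools it was 11.7% of the value of the lone stage 15 pool.

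Twist1, a basic helix-loop-helix factor of mesenchymal crest, showed no called change through stage 25. At stage 15 the twist1 pools stood at 134 and 150 CPM in wild type, 152 and 133 in heterozygous and 148 in null embryos, and at stage 25 at 149 and 138, 151 and 124, and 125 and 140 CPM. The pools of these stages overlapped within each genotype or, for null, the lone earlier pool lay above both later ones. The wild type difference between them was 0.02 on the log2 scale, with a 95% interval of -0.40 to 0.44, and 0.10 with that second stage 15 pool left out. At stage 35, twist1 stood at 73.4 and 47.6, 60.1 and 80.5, and 60.5 and 69.5 CPM, below every pool of the earlier stages. This step was -1.25 on the log2 scale in wild type (SE 0.20, edgeR adjusted p = 0.000172), -0.97 in heterozygous (SE 0.20, edgeR adjusted p = 0.00123) and -1.02 in null pools (SE 0.20, edgeR adjusted p = 0.000917).

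The 3 SoxE genes took different courses. At stage 25, sox8 stood at 0.198-fold of its stage 15 level in wild type with both pools, the lowest point value among the 9 genes at that step. At stage 15 the sox8 pools stood at 11.3 and 11.8 CPM in wild type, 10.7 and 7.67 in heterozygous and 10.8 in null embryos. At stage 25 they stood at 2.39 and 2.15, 2.18 and 1.29, and 2.76 and 5.20 CPM, all below the stage 15 pools. At stage 35 the sox8 values were 1.28 and 1.82, 0.842 and 3.41, and 2.24 and 3.55 CPM, and these overlapped stage 25 in heterozygous and null embryos. The log2 fold change to stage 25 was -2.34 in wild type (SE 0.50, edgeR adjusted p = 0.00206) and -2.39 in heterozygous pools (SE 0.51, edgeR adjusted p = 0.00158). From stage 25 to 35 it was -0.56 in wild type (edgeR adjusted p = 0.416), with an interval of -1.71 to 0.60, and a further change in either direction was not detectable at counts of 11 to 85.

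Sox9 also dropped between stages 15 and 25, with no call after that. The stage 15 pools of sox9 read 106 and 69.6 CPM in wild type, 91.4 and 88.5 in heterozygous and 81.5 in null embryos. The stage 25 pools read 29.3 and 34.8, 41.5 and 34.7, and 42.5 and 44.6 CPM, and the stage 35 pools 39.7 and 42.3, 42.9 and 43.2, and 39.2 and 39.5 CPM. Every stage 15 pool was above every later pool, and from stage 25 on the values lay between 29.3 and 44.6 CPM. To stage 25, sox9 changed by -1.45 in wild type (SE 0.19, edgeR adjusted p = 3.81e-05) and by -1.24 in heterozygous pools (SE 0.19, edgeR adjusted p = 0.000103), on the log2 scale. The next step was 0.35 in wild type (95% interval -0.05 to 0.75), 0.18 in heterozygous (-0.22 to 0.58) and -0.15 in null pools (-0.55 to 0.25), with no call in any of them.

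Sox10 was not called between stages 15 and 25 and then dropped. At stage 15, sox10 read 28.9 and 62.8 CPM in the 2 wild type pools, 40.9 and 26.2 in heterozygous and 48.6 in null embryos. At stage 25 its values were 72.9 and 40.8, 52.8 and 43.4, and 48.5 and 66.2 CPM. The heterozygous pools of the later stage lay above both earlier ones, while the wild type pools overlapped. The step measured 0.31 in wild type (SE 0.33, edgeR adjusted p = 0.467) and 0.53 in heterozygous pools (SE 0.33, edgeR adjusted p = 0.205). Without the second stage 15 wild type pool, the one that stood apart, sox10 was called higher at stage 25, by 0.98. Without the first, the sox10 step was -0.16. At stage 35, sox10 read 16.03 and 15.2 CPM in wild type, 17.98 and 16.3 in heterozygous and 15.7 in both null pools, below every earlier pool. Its log2 fold change from stage 25 was -1.86 in wild type (SE 0.34, edgeR adjusted p = 0.000453), -1.49 in heterozygous (SE 0.34, edgeR adjusted p = 0.00227) and -1.87 in null pools (SE 0.34, edgeR adjusted p = 0.000513).

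Foxd3 fell at both steps, as snai1 and snai2 did. At stage 15, foxd3 stood at 105 and 95.9 CPM in wild type, 116 and 88.8 in heterozygous and 97.3 in null embryos. The stage 25 values were 34.8 and 32.8, 30.0 and 35.6, and 29.3 and 30.8 CPM. The stage 35 values were 11.9 and 16.7, 13.8 and 15.2, and 12.7 and 10.5 CPM. The stages were fully apart in every genotype. Foxd3 changed in wild type by a log2 fold change of -1.58 (SE 0.20, edgeR adjusted p = 2.63e-05) to stage 25 and -1.25 (SE 0.20, edgeR adjusted p = 0.000167) from there to stage 35. In null pools the second step was -1.37 (SE 0.21, edgeR adjusted p = 0.000101).

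Ets1 showed no called change to stage 25 and fell afterwards. At stage 15, ets1 measured 53.3 and 50.9 CPM in wild type, 54.4 and 46.0 in heterozygous and 56.0 in null embryos, and at stage 25 it measured 69.9 and 52.0, 62.8 and 60.5, and 64.7 and 76.1 CPM. The later pools were higher in heterozygous and null embryos and overlapped in wild type. The step was not called, at 0.23 in wild type (95% interval -0.16 to 0.61; 0.19 without the second stage 15 pool) and 0.30 in heterozygous pools (-0.09 to 0.68). At stage 35 the ets1 pools stood at 36.7 and 29.6, 34.6 and 35.0, and 35.3 and 30.6 CPM, below all earlier pools. Its log2 fold change was -0.88 in wild type (SE 0.18, edgeR adjusted p = 0.00124), -0.83 in heterozygous (SE 0.18, edgeR adjusted p = 0.00185) and -1.10 in null pools (SE 0.18, edgeR adjusted p = 0.000259).

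Tfap2e was the gene with no call between stages in any genotype. At stage 15 its wild type pools stood at 11.6 and 35.7 CPM, its heterozygous pools at 20.1 and 13.7 and its null pool at 23.5. At stage 25, tfap2e read 28.7 and 14.3, 19.3 and 21.0, and 29.3 and 18.1 CPM, and at stage 35 it read 37.1 and 33.9, 34.5 and 29.9, and 20.6 and 19.8 CPM. The wild type and heterozygous pools of stage 35 lay above their stage 25 pools, whereas the null pools of stage 35 lay within the range of those of stage 25. The step from stage 25 to 35 was 0.72 in wild type (SE 0.41, edgeR adjusted p = 0.157), 0.68 in heterozygous (SE 0.41, edgeR adjusted p = 0.187) and -0.23 in null pools (SE 0.41, edgeR adjusted p = 0.674). The wild type step from stage 15 to 25 was -0.13 (edgeR adjusted p = 0.833), and it turned with the stage 15 pool left out, to 0.89 (edgeR adjusted p = 0.0654) without the second and -0.74 (edgeR adjusted p = 0.127) without the first. The wild type mean of tfap2e at stage 35 was 150.3% of the stage 15 mean, 307% of the first stage 15 pool alone and 99.5% of the second. In null pools it was 85.9% of the single stage 15 pool.

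**Figure D2:**
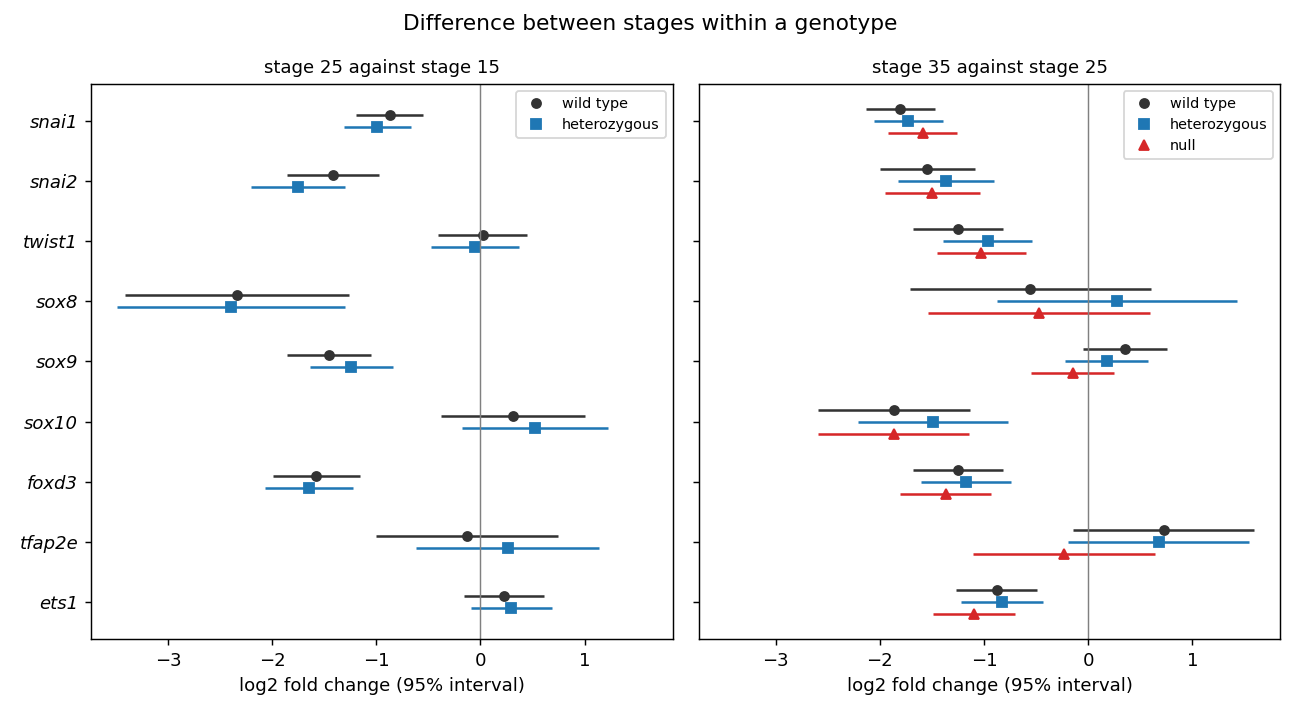
Log2 fold change of each specifier gene (x axis, with its 95% interval) from stage 15 to 25 in wild type and heterozygous pools (left) and from stage 25 to 35 in each genotype (right); a value below 0 means a lower level at the later stage. On the left, snai1, snai2, sox8, sox9 and foxd3 lie below 0 with their intervals, and on the right snai1, snai2, sox10, foxd3, twist1 and ets1 do.

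Markers of other tissues also moved between stages, since each library holds a whole embryo. All 4 tested markers of paraxial mesoderm fell from stage 15 to 25 in wild type, and their summed level went from 904 to 1076 CPM to 78.7 to 79.6 CPM and then to 41.0 to 41.6 CPM at stage 35. Of the 3 notochord markers 2 fell at the first step, and their sum went from 408 to 429 CPM to 93.8 to 116 CPM and then to 58.5 to 73.1 CPM. Of the 7 blood and endothelium markers 5 rose and 1 fell at the first step, and the sum went from 64.1 to 70.8 CPM to 121 to 142 CPM and then to 126 to 147 CPM, with 1 of the 7 at 0 in both stage 15 wild type pools. Of the 5 ear vesicle markers 2 rose and 3 fell at the first step, and the sum went from 227 to 263 CPM to 143 to 185 CPM and then to 113 to 151 CPM. Neural tube markers summed to 1064 to 1286, 829 to 1107 and 785 to 1031 CPM at the 3 stages in wild type. Epidermis markers summed to 524 to 595, 981 to 1083 and 565 to 912 CPM. Over all 28 tested markers 10 were called higher and 14 lower at the first wild type step, beside 23.4% and 16.9% of all tested genes. At the second wild type step 7 of the 28 were called higher and 13 lower, beside 24.7% and 22.5%. The part of these tissues in the courses of snai1, twist1, sox9 and ets1 was not tested.

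Embryos of different genotypes were compared within each stage to ask whether sf3b4 loss changes the levels of the specifiers. None of the 9 genes was called in any of the 8 comparisons of 2 genotypes at 1 stage by edgeR. Between null and wild type pools of stages 25 and 35, the point differences of largest size were in sox8, sox9 and snai1, with higher values in null pools at stage 25 or 35, and in tfap2e, with a lower one at stage 35. Over all 8 comparisons the largest was sox8 in null against heterozygous pools of stage 25. All of these missed the threshold in the main fits.

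At stage 15, edgeR called 0 of the 9 genes between heterozygous and wild type pools, and 0% of all tested genes. At an unadjusted p under 0.05 the count of specifiers was also 0, beside 4.64% of all tested genes, and the DESeq2 Wald test called 0. The differences with the largest size were tfap2e at -0.48 (95% interval -1.36 to 0.40) and sox10 at -0.45 (-1.15 to 0.25). Both turned positive without the second wild type pool, at 0.54 and 0.21, with an edgeR adjusted p of 1. The other 7 differences lay between -0.33 and 0.07, and between -0.30 and 0.09 without that pool. The pools overlapped except for sox8, which was lower in both heterozygous pools, beside 20.6% of all tested genes whose pools did not overlap.

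The single stage 15 null pool was compared under the assumption that it varies like the pools of the other groups. The edgeR test called 0 of 9 specifiers there, beside 0.00564% of all tested genes. The count at an unadjusted p under 0.05 was 0, beside 4.23%, and DESeq2 called 0. The log2 differences from wild type ran from -0.15 for snai1 to 0.14 for snai2. Snai2 and ets1 were above both wild type pools and sox8 was below both, beside 51.7% of all tested genes outside the wild type range. Without the second wild type pool, tfap2e stood 1.02 and sox10 0.75 above the remaining wild type pool, with edgeR adjusted p of 0.679 and 0.746, and the other 7 lay between -0.37 and 0.15. With both wild type pools, intervals of 7 genes excluded a 2-fold change in either direction, and those of sox8 and tfap2e did not. No intervals were taken without the second wild type pool, so this exclusion does not extend to sox10 there.

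At stage 25, null pools were compared with wild type pools, and edgeR called 0 of the 9 specifiers, beside 1.78% of all tested genes. At an unadjusted p under 0.05 the count was 1, sox9, beside 13.7% of all tested genes, and DESeq2 called 0. The 2 sox9 null pools, at 42.5 and 44.6 CPM, lay above the wild type pools at 29.3 and 34.8 CPM. The log2 fold change of sox9 was 0.44 (SE 0.19, 95% interval 0.04 to 0.84), with an unadjusted p of 0.0327 and an edgeR adjusted p of 0.302. Heterozygous pools of sox9 stood at 41.5 and 34.7 CPM, below both null pools and overlapping the wild type pools, and differed from wild type by 0.25 (interval -0.15 to 0.65). Sox8 had the largest point difference, at 0.81 (SE 0.51, interval -0.27 to 1.89, edgeR adjusted p = 0.534). Its null counts were 41 and 85 against 41 and 35 in wild type, and the second null pool alone stood clearly above the rest.

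The other 7 specifiers at stage 25 differed by -0.17 to 0.21 between null and wild type. Foxd3 was lower in both null pools, at -0.17 (interval -0.59 to 0.25), and snai1 was higher in both, at 0.14 (-0.18 to 0.46). The difference was -0.05 for snai2 (-0.49 to 0.39), -0.12 for twist1 (-0.54 to 0.31), 0.01 for sox10 (-0.68 to 0.71), 0.21 for ets1 (-0.18 to 0.59) and 0.14 for tfap2e (-0.73 to 1.01). Pools did not overlap for 4 of the 9 genes, with snai1, sox8 and sox9 higher and foxd3 lower, beside 42.3% of all tested genes. The median over the 9 genes was 0.14, against 0.00 over all tested genes. Intervals of 7 of the 9 genes excluded a 2-fold change in either direction at this depth and replication, and those of sox8 and tfap2e did not. Misses of the threshold do not show that the genotypes have equal levels.

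**Figure D3:**
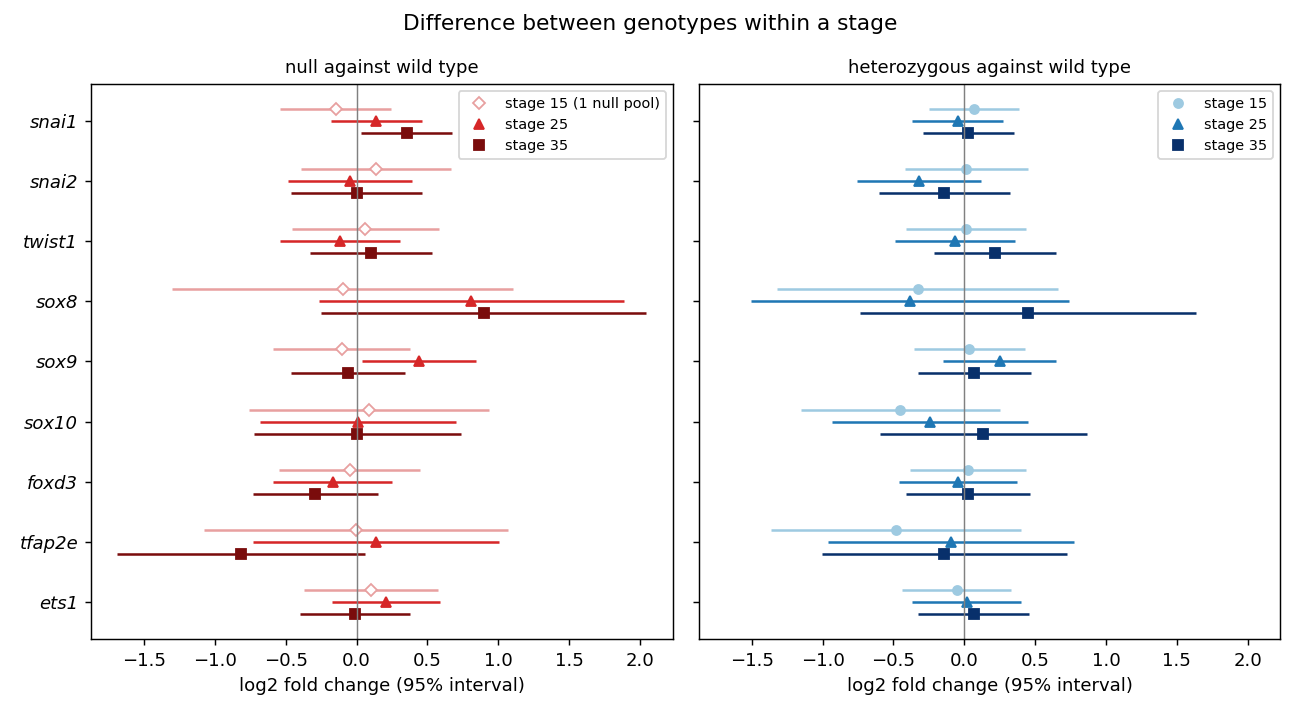
Log2 fold change of each specifier gene (x axis, with its 95% interval) in null against wild type (left) and heterozygous against wild type pools (right) at each stage; the open symbols rest on the single stage 15 null pool. Nearly all intervals span 0, and the exceptions, sox9 at stage 25 and snai1 at stage 35 in null pools, did not pass the adjustment over all genes.

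Heterozygous embryos at stage 25 had 0 of 9 specifiers called against wild type by edgeR, beside 0% of all tested genes, 0 at an unadjusted p under 0.05, beside 2.83%, and 0 by DESeq2. Their point differences ran from -0.38 for sox8 to 0.25 for sox9, and the pools of all 9 genes overlapped, where those of 30.0% of all tested genes did not. Snai2 differed by -0.32 (interval -0.76 to 0.12), where its wild type pools themselves stood at 73.0 and 47.8 CPM. Null against heterozygous pools of the same stage gave 0 calls of 9, beside 0.0676% of all tested genes, and 1 at an unadjusted p under 0.05, beside 9.62%. That gene was sox8, at 1.19 (SE 0.52, interval 0.09 to 2.29, edgeR adjusted p = 0.472), and DESeq2 called 0. Both null pools lay above both heterozygous pools for 5 of the 9 genes (snai1, snai2, sox8, sox9 and ets1), where 19.3% of all tested genes did, and no specifier lay below. Pools of 40.6% of all tested genes did not overlap in either direction.

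At stage 35, null against wild type pools gave 0 calls of 9 in edgeR, beside 9.75% of all tested genes. The count at an unadjusted p under 0.05 was 1, snai1, beside 24.6% of all tested genes, and DESeq2 called 0. The null pools of snai1 stood at 113 and 126 CPM, above the wild type pools at 90.8 and 96.0 and the heterozygous pools at 96.8 and 93.8 CPM. The log2 fold change of snai1 was 0.35 against wild type (SE 0.15, interval 0.03 to 0.68, unadjusted p = 0.0339, edgeR adjusted p = 0.162). Against heterozygous pools it was 0.32 (SE 0.15, edgeR adjusted p = 0.234). This was a 1.28-fold level, and snai1 had dropped from stage 25 in null pools too.

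Tfap2e was the specifier with the lowest null level relative to wild type at stage 35. Its null pools stood at 20.6 and 19.8 CPM, and the 4 other pools of the stage lay between 29.9 and 37.1 CPM. The log2 fold change was -0.82 against wild type (SE 0.41, interval -1.69 to 0.06, unadjusted p = 0.0649, edgeR adjusted p = 0.236) and -0.67 against heterozygous pools (SE 0.41, edgeR adjusted p = 0.379). This call changed with the libraries in the fit, and the stage 15 wild type pools of tfap2e differed 3.06-fold from each other. In a fit of the null and wild type pools of stage 35 alone, tfap2e was called lower, at -0.80 with an edgeR adjusted p of 0.0183. In a fit of all 6 stage 35 libraries, chosen after the data were seen, the edgeR adjusted p was 0.0146 for the same difference. Without the stage 15 libraries it was 0.0694 and with DESeq2 0.181. The fit of the null and wild type pools of stage 35 alone called 2510 of 17662 tested genes. That of the 6 stage 35 libraries called 2529 of 17682. The null effect at stage 35 minus that at stage 25 was -0.95 (SE 0.58, interval -2.18 to 0.28, edgeR adjusted p = 0.686), so the stages were not shown to differ.

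Sox8 had the largest point difference of the 9 genes at stage 35, with a wide interval. It stood at 2.24 and 3.55 CPM in null and 1.28 and 1.82 CPM in wild type, with a difference of 0.90 (SE 0.54, interval -0.25 to 2.05, edgeR adjusted p = 0.330). The heterozygous pools of sox8, at 0.842 and 3.41 CPM, lay on either side of both wild type pools and of the lower null pool. Foxd3 differed by -0.29 (interval -0.73 to 0.15), twist1 by 0.10 (-0.33 to 0.53) and sox9 by -0.06 (-0.46 to 0.34), while snai2, sox10 and ets1 differed by 0.00, 0.01 and -0.01. Pools did not overlap for snai1 and sox8, which were higher, and for sox9 and tfap2e, which were lower, beside 60.5% of all tested genes. The median over the 9 genes was 0.00 against -0.03 over all tested genes, and intervals of 7 genes, all but sox8 and tfap2e, excluded a 2-fold change.

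Heterozygous against wild type pools at stage 35 gave 0 calls of 9 by edgeR, beside 0.00564% of all tested genes, 0 by DESeq2, and 0 at an unadjusted p under 0.05, beside 1.32%. Point differences ran from -0.14 for tfap2e to 0.45 for sox8, and pools did not overlap for sox9 and sox10, which were higher, beside 25.4% of all tested genes. Null against heterozygous pools gave 0 calls of 9, beside 6.98% of all tested genes, with snai1 alone at an unadjusted p under 0.05, beside 21.1%, and 0 called by DESeq2. Pools did not overlap for 5 of the 9, with snai1 higher and sox9, sox10, foxd3 and tfap2e lower, beside 58.3% of all tested genes. These comparisons share their null or wild type pools with the ones above, so they do not add independent support.

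Differences of the genotype effect between stages were tested for each specifier. The null effect at stage 35 minus that at stage 25 gave 0 calls of 9, beside 0.141% of all tested genes, with sox9 at -0.50 (SE 0.27, edgeR adjusted p = 0.622) and the rest, apart from tfap2e, between -0.22 and 0.22. Both differences of the heterozygous effect, from stage 15 to 25 and from stage 25 to 35, gave 0 calls of 9 beside 0% of all tested genes. For these 3 differences the count at an unadjusted p under 0.05 was 0 as well, beside 8.80%, 3.71% and 1.74% of all tested genes, and DESeq2 called 0. An average null effect over the 3 stages, fitted to all 17 libraries, called 0 of 9 beside 11.0%, 0 at an unadjusted p under 0.05 beside 26.0%, and 0 by DESeq2. Its largest values were 0.58 for sox8 (SE 0.31, edgeR adjusted p = 0.241) and -0.25 for tfap2e (SE 0.26, edgeR adjusted p = 0.583). The average heterozygous effect called 0 of 9 beside 0.00564%, with 0 at an unadjusted p under 0.05 beside 2.63% and 0 by DESeq2, and ran from -0.23 for tfap2e to 0.11 for sox9. Without the second stage 15 wild type pool no specifier was called in these averages or in the stage 15 to 25 difference of the heterozygous effect. The average null effect was then 0.63 for sox8 and -0.06 for tfap2e, and the average heterozygous effect ran from -0.20 for snai2 to 0.07 for twist1.

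Specifier genes differed in how closely pools of a group agreed. Tfap2e and sox10 varied most at stage 15, where the wild type pools differed 3.06-fold and 2.17-fold, a larger gap than in 94.0% and 85.8% of all tested genes. At stage 25 the wild type pools differed 1.995-fold in tfap2e and 1.79-fold in sox10. In both genes the second wild type pool was the higher one at stage 15 and the first was at stage 25. Over all 17 libraries, tfap2e and sox10 deviated together from their stage means (r = 0.71, or 0.57 over the 16 libraries other than the second stage 15 wild type pool), while their levels across stages did not run together (r = -0.16). The widest gap of any specifier was 3.64-fold, for sox8 between the stage 35 heterozygous pools, which held 11 and 42 counts. Snai1 pools never differed more than 1.30-fold.

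**Figure D4:**
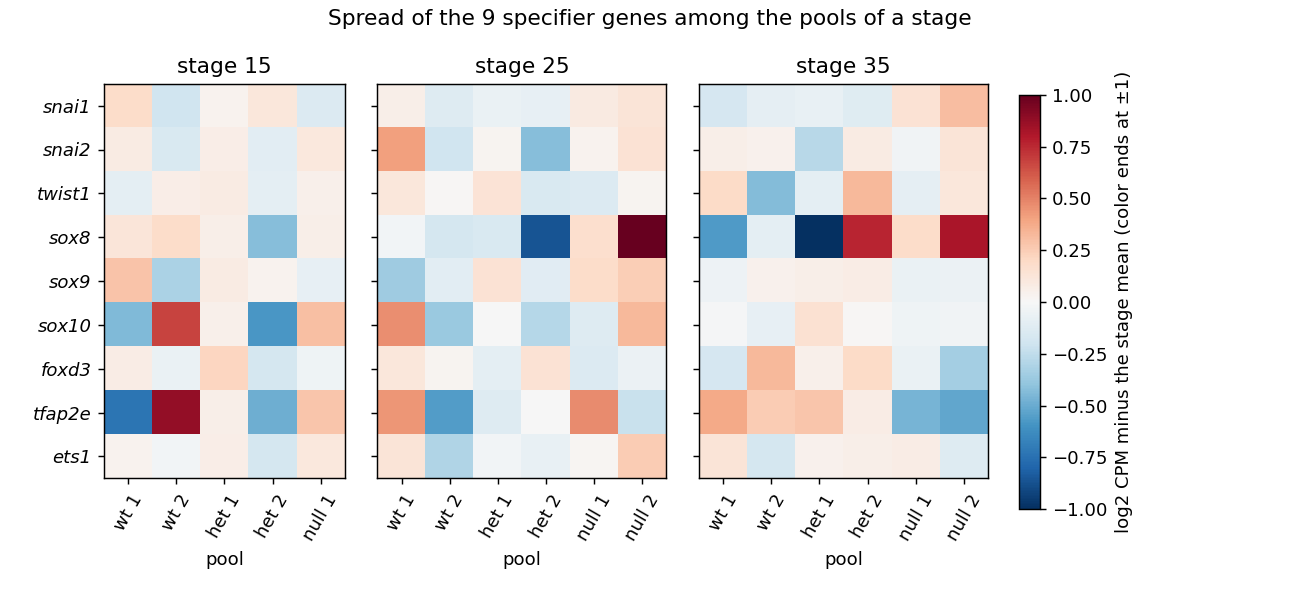
Deviation of each specifier gene in each pool from the mean of its stage (log2 CPM; red above, blue below, colour ends at 1 either way), with wild type (wt), heterozygous (het) and null pools side by side. Tfap2e and sox10 show opposite colours in the 2 wild type pools of stage 15, tfap2e is blue in both null pools of stage 35, and sox8 shows the deepest colours at stages 25 and 35.

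Pairs of specifiers were compared over the 17 libraries as a description, since all libraries share the effect of stage. Snai2 and foxd3 ran most alike (r = 0.98), followed by snai1 with snai2 (r = 0.96) and sox10 with ets1 (r = 0.94). After removal of stage means the values for these pairs were -0.06, 0.36 and 0.56. Among 13252 genes with a mean log2 CPM of at least 1, those most like each specifier were rhebl1 for snai1 (r = 0.997), znf217 for snai2 (0.990), LOC105947777 for twist1 (0.978), fzd3 for sox8 (0.932), trpm4 for sox9 (0.973), myh2 for sox10 (0.965), llgl1 for foxd3 (0.990), noc4l for ets1 (0.961) and itpr1 for tfap2e (0.905). The next in order were LOC100489456, zmynd10, gcnt4, stag1, ctf1, smyd1, hnrnpl, fitm1 and sema6b, with r between 0.858 for sema6b and 0.993 for LOC100489456.

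The specifiers were set beside 61 other tested genes of the crest pathway: 11 border factors, 17 other regulators and signals, 18 genes of migration and adhesion, and 15 of crest derivatives. The lists were chosen with earlier results of these data known, so their counts beside all tested genes are a description. From stage 15 to 25 in wild type, 14 of the 61 were called higher and 21 lower, beside 23.4% and 16.9% of all tested genes. From stage 25 to 35, 14 were called higher and 28 lower, beside 24.7% and 22.5%. In null against wild type at stage 25, edgeR called 0 of the 61, as it called none of the specifiers, with 10 at an unadjusted p under 0.05. DESeq2, which gave an adjusted p for 58 of the 61, called 4 higher. Over all 17742 tested genes edgeR called 1.78%, 13.7% had an unadjusted p under 0.05, and DESeq2 called 680, of which 47.6% were higher. At stage 35, 8 of the 61 were called higher and 0 lower, against 0 of the 9 specifiers. Whether the specifiers differ from the 61 genes was not tested. Of all tested genes 4.80% were called higher and 4.95% lower. At an unadjusted p under 0.05 the count was 21 of the 61, beside 24.6% of all tested genes. DESeq2, which gave an adjusted p for 59 of the 61, called 12 higher and 0 lower. It called 2303 of all tested genes, of which 46.5% were higher. Null against heterozygous pools gave 6 of the 61 higher and 0 lower, beside 3.34% and 3.65% of all tested genes. The 8 called against wild type were 5 of the 17 regulators and signals and 3 of the 18 migration genes, and none was a border factor or a derivative gene. Median log2 fold changes at stage 35 were 0.24 for border factors, 0.61 for other regulators and signals, 0.34 for migration genes and -0.04 for derivatives, against 0.00 for the specifiers. The median of the regulators was the same with wnt8a, which had 0 counts in wild type, at its lower bound.

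Among the regulators at stage 35, mycn, a proliferation-linked factor, stood at 84.9 and 86.8 CPM in null and 46.3 and 42.9 CPM in wild type pools, with a log2 fold change of 0.94 (SE 0.22, edgeR adjusted p = 0.0133). A related factor that acts early in crest formation in Xenopus, myc, was higher in null than in wild type pools by 0.61 (edgeR adjusted p = 0.0164). The signals fgf8 and bmp4 were higher in null pools by 0.77 and 0.62 (edgeR adjusted p = 0.0225 and 0.0283). The crest-inducing signal wnt8a had 5 and 6 counts in null against 0 in both wild type pools, near the limit of detection. This was at least 1.70-fold higher with the wild type set at 3 counts in each library. At stage 25 the wild type pools of wnt8a held 423 to 479 counts. The semaphorin receptor gene nrp1 had 43.5 and 34.4 CPM in null and 18.9 and 13.3 CPM in wild type pools, with a log2 fold change of 1.27 (SE 0.22, edgeR adjusted p = 0.00249). An Eph receptor, epha4, and an ephrin, efnb2, were higher in null pools by 0.74 and 0.88 (edgeR adjusted p = 0.0230 and 0.0102). The 8 calls rested on having both pools. Most were lost without any 1 stage 35 null or wild type pool, and all without the second wild type pool. Every point value was still above 0. Calls over all tested genes also became fewer in each of these fits. Wnt8a also lost its call in the fit of the 2 groups alone (edgeR adjusted p = 0.107) and in that of the stage 35 libraries (edgeR adjusted p = 0.0949), where the other 7 were still called.

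**Figure D5:**
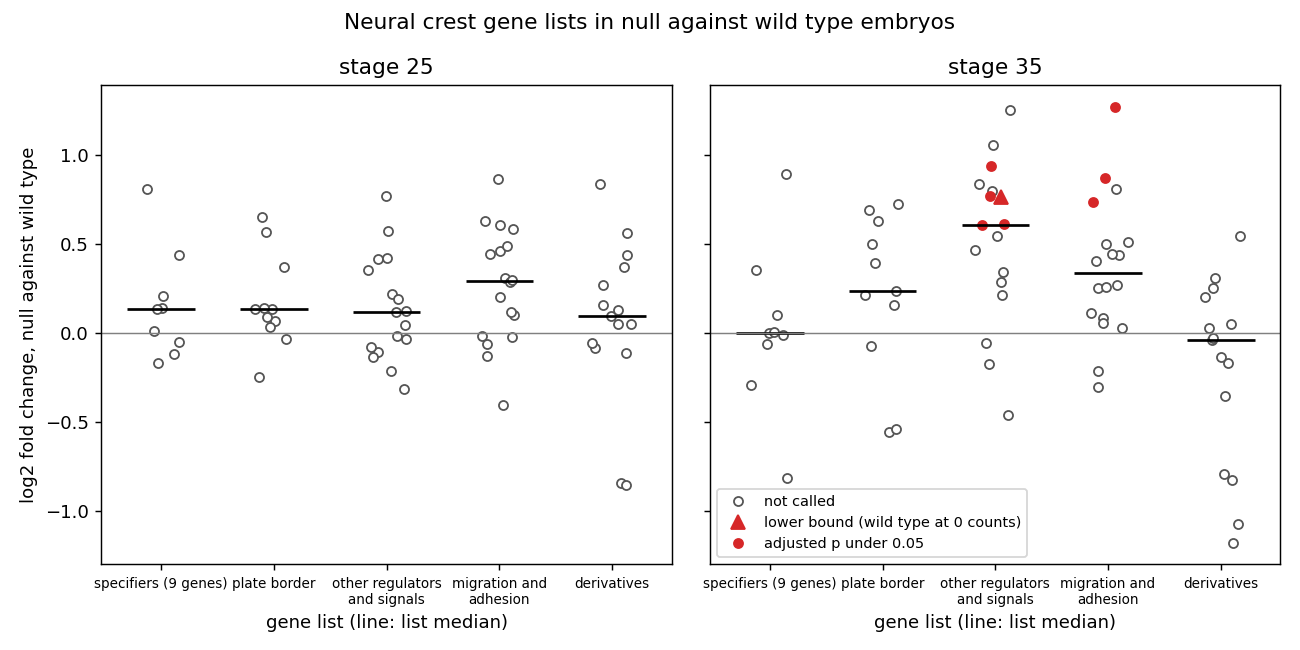
Null against wild type pools (y axis, log2 fold change) for each tested gene of the specifier set and 4 other crest lists at stage 25 (left) and 35 (right), with list medians as lines; filled red symbols were called by edgeR, and the triangle is wnt8a at its lower bound. No symbol is filled at stage 25, and at stage 35 the filled ones lie among regulators, signals and migration genes and not among the 9 specifiers. A difference between the lists was not tested.

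Markers of other tissues in null pools are given beside these results. At stage 25, 1 of 28 tested markers was called, beside 1.78% of all tested genes. This was tbx6 of paraxial mesoderm, at 93.6 CPM in the first null pool and 1.65 in the second. It stood at 1.28 and 2.09 CPM in the wild type and 6.94 and 4.41 CPM in the heterozygous pools. It was high in 1 pool, and the summed level of the 4 paraxial markers was 116 to 204 CPM in null against 78.7 to 79.6 CPM in wild type pools. Of the 28 markers 23 had a higher point value in null pools, with a median log2 fold change of 0.34 against 0.00 over all tested genes. At an unadjusted p under 0.05 the count was 6 of 28, beside 13.7% of all tested genes. Notochord markers summed to 126 to 146 CPM in null against 93.8 to 116 CPM in wild type pools, and epidermis markers, of which 1 of 5 was at 0, to 1124 to 1184 against 981 to 1083 CPM. The sums of neural tube, blood and endothelium, and ear vesicle markers overlapped between these groups. At stage 35, 16 of the 28 had a higher point value, with a median of 0.12 against -0.03. At an unadjusted p under 0.05 the count was 7 of 28, near the 24.6% of all tested genes. Epidermis markers summed to 1035 to 1100 CPM in null against 565 to 912 CPM in wild type pools, and paraxial markers to 46.4 to 47.0 against 41.0 to 41.6 CPM. Ear vesicle markers summed to 110 to 112 against 113 to 151 CPM. The sums of blood and endothelium and of notochord markers overlapped between null and wild type pools at this stage. Pools of 60.5% of all tested genes did not overlap there. The 1 marker called at stage 35, beside 9.75% of all tested genes, was elavl3 of neurons, lower by a log2 fold change of -0.79 (edgeR adjusted p = 0.0266). The summed level of the 5 neural tube markers was 672 to 692 CPM in null against 785 to 1031 CPM in wild type pools. The part of these tissues in the levels of the specifiers in null pools was not tested.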

How the data were processed

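RNA-seq was made from pools of 5 whole embryos, and the authors deposited 1 table of raw read counts per gene for each of 17 libraries, per the file headers. Libraries were stranded and polyA-selected, per the labels' protocols. Bcl2fastq 2.20 and STAR are named in the submitters' processing notes. The counting program, its use of strand, the genome build and the annotation are not given in the sources used here, so no coordinates are printed and reads of overlapping genes may be shared. Gene names were checked in RefSeq (UCB_Xtro_10.0).

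Of 26531 genes, 17742 passed filterByExpr (minimum count 10, total 15). Libraries were scaled by the trimmed mean of M values. Tests were two-sided quasi-likelihood tests in edgeR 4.0.16 under R 4.3.3, over 16 libraries and 8 groups with 8 residual degrees of freedom. The stage 15 null pool entered fits of all 17 libraries. P-values were adjusted by Benjamini-Hochberg over all tested genes. Intervals are 95%. The fit was tested on simulated data. Nothing in the labels says that pools came from separate crosses, so p-values measure the spread between pools. No molecular identifiers are named.

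The 9 genes and the lists were chosen with earlier results of these data known. Named genes are the 9, list genes called in null against wild type, sf3b4, the 2 genes most like each of the 9 and, chosen after their values were seen, the called markers. Of 63 list genes 61 were matched and tested, and of 30 markers 29 were matched and 28 tested. Alternatives were DESeq2 1.42.0 (Wald test and size factors), no filter, a replicate block, other sets of libraries, and each library left out.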

Additional observations from a re-analysis of the deposited data

How the results depend on the processing

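Counts of called specifiers were the same under DESeq2 size factors, the DESeq2 Wald test, no filter on low counts and a fit of all 17 libraries, except that without the filter tfap2e was called higher in wild type from stage 25 to 35 (0.72, edgeR adjusted p = 0.0429). In fits of the 2 groups compared, and in fits of the libraries of stage 35 alone, the count rose from 0 to 1 in null against wild type and in null against heterozygous pools of stage 35, through tfap2e (edgeR adjusted p from 0.0146 to 0.0497). In null against wild type, these fits called 2510 of 17662 and 2529 of 17682 tested genes. In null against heterozygous pools they called 2074 of 17665 and 1860 of 17682. Tfap2e was also called from stage 25 to 35 in wild type without the stage 15 libraries (0.75, edgeR adjusted p = 0.0385) and between the 2 groups alone (0.75, edgeR adjusted p = 0.0488), and in heterozygous pools between the 2 groups alone (0.67, edgeR adjusted p = 0.0138). Sox10 was called higher from stage 15 to 25 in heterozygous pools between the 2 groups alone (0.52, edgeR adjusted p = 0.0238). The fits behind these calls between stages called 8157 to 9225 of all their tested genes. Of those, 52.5% to 55.7% were higher. The fits by stage and without stage 15 were chosen after the data were seen. With a library left out, called specifiers stayed at 0 in all genotype comparisons and at 5, 6, 6 and 6 in the stage steps other than the first wild type one, which ran from 5 to 6. No call of a specifier was lost or reversed in any of these settings. Of 972 values with a library left out, called and uncalled together, 148 changed sign, all of them in uncalled differences.

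Replicate numbers are given in the labels without a statement that they mark a shared cross or day. Differences between the numbered pools correlated between groups of a stage with r from -0.37 to 0.10, so the pools were not taken as paired. With a replicate block the count of called specifiers was 0 in every genotype comparison, 5 at the first step and 6 at the second.

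The background of all tested genes was less stable. Null against wild type at stage 25 had 315 calls, 680 with DESeq2, 584 without the filter and 0 to 171 with a library left out. At stage 35 it had 1730, 2510 between the 2 groups alone and 379 to 1308 with a library left out. Null against heterozygous at stage 25 had 12, 181 with DESeq2, 149 without the filter and 1 with the block. For the single stage 15 null pool against wild type there was 1 call, which was lower. This comparison had 3 with DESeq2 size factors (66.7% higher), 11 with the DESeq2 Wald test, 21 without the filter and 0 with the block. Heterozygous against wild type at stage 15 had 0, and 0 to 369 with a library left out. Sox8, which held the lowest count and the widest gap between pools, had the widest intervals of the 9 genes, followed by tfap2e and sox10. The parts of depth and of pool spread in these widths were not told apart.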
